A study of Mus musculus with 36 samples.

Results

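Mouse NIH3T3 fibroblasts that carried an Erbb2 transgene under tet-off control, and had spent 5 days with tetracycline, were compared with the same cells left without tetracycline. The comparison was defined by the sample titles: 4 arrays at 5 days and 4 untreated arrays, of 36 two-colour arrays in the series. The other groups, also of 4 arrays each, had 1, 2, 4, 12 or 24 h, or 3 or 7 days, of tetracycline. Every group carried the transgene, and channel 2 of every array held untreated Erbb2 cells. The channel 1 sample was labelled with Cy5 on the arrays of replicates 1 and 2 and, in a dye swap, with Cy3 on those of replicates 3 and 4. NIH3T3 is an established, immortal fibroblast line. The labels do not give the details of the promoter or say whether the transfected line is 1 clone. They also speak of organs and of a control pool from animals, and the design text of 2 untreated lines, so the source names were followed and the exact reference sample is not fully settled.

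ERBB2 (HER2) is a membrane kinase related to the epidermal growth factor receptor. It has no known ligand of its own, signals as a partner of the other family members and, when overexpressed, transforms fibroblasts through the RAS-ERK and PI3K pathways. In a tet-off system tetracycline keeps the transactivator off its promoter, so the transgene is shut down while the drug is present. Growth factor signalling of this kind is known to raise immediate early genes such as Egr1, and RAS transformation of fibroblasts to lower Lox.

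Each value is a log2 ratio between the 2 channels, after centring every array on its median, and the numerator is not given in the sources used here. A positive value is read below as higher after tetracycline, with Cy3 arrays multiplied by -1. This sign is assumed and not settled. The untreated arrays cannot settle it, because both of their channels held untreated cells and a dye bias alone changes sign on turning. After turning, untreated replicate 1 (Cy5) correlated at -0.449 and -0.380 with replicates 3 and 4 (Cy3). Replicates 3 and 4 correlated at 0.434 with each other (Pearson r across probes, which are not independent). At 5 days the arrays correlated at 0.133 and 0.120 within a dye and at 0.043 to 0.058 between dyes. Of 496 probes whose mean lay beyond 1 log2 unit in both dye orientations at 5 days, 332 (66.9%) had the same sign in both after turning. Rows of the 5-day and 7-day arrays had slid against the probe list at 4 points (most likely rows 6054, 7325, 7846 and 18335) and were moved back, with 604 probes left out near those points and at the end of the list. Replicate 1 at 5 days was moved by 1 further row over the whole list, also before the first of these points. The first 2 untreated replicates held the same values apart from a shift of 0.771 (SD 0.00051 over 19840 values), less than sampling noise allows, and were counted as 1 array. The untreated mean thus rests on 1 Cy5 and 2 Cy3 arrays, against 2 of each at 5 days. The fit has 1 dye effect shared by all groups. A dye bias of the untreated arrays beyond that shared effect enters every difference from untreated, and its size was not tested. The 5-day arrays held 18897 to 19099 values and had an interquartile range of 0.70 to 0.81, against 19441 to 20010 values and 0.49 to 0.70 in the untreated arrays. The number of arrays limits the precision. Nothing says that replicates came from separate cultures, so the p-values measure only the spread between these arrays, which may be technical.

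**Figure D1:**
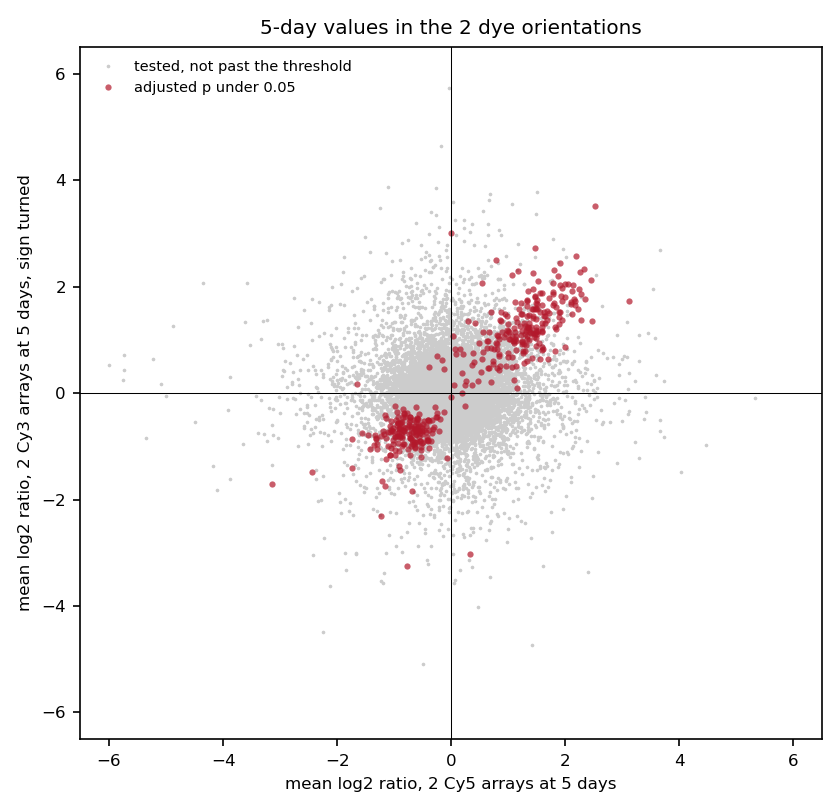
Mean log2 ratio of the 2 Cy3 arrays at 5 days, with the sign turned (vertical axis), against the mean of the 2 Cy5 arrays (horizontal axis), one point per probe tested, with probes past the threshold between 5 days and untreated in red. Of the 393 red points, 385 have the same sign on both axes, which the choice of red points over both dyes favours.

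Between 5 days and untreated, 393 of 17374 probes passed limma's test at an adjusted p under 0.05 (2.26%), 223 higher (1.28%) and 170 lower (0.978%). A change of 2-fold or more was seen for 147 of the higher and 104 of the lower probes. Counted by gene, with the probes of 1 symbol averaged, 142 of 8872 genes passed (1.6%), 71 higher (0.8%) and 71 lower (0.8%). The difference had the same sign in both dye orientations for 388 of the 393 probes. These probes were called on the difference over both orientations, so their selection favours a shared sign and the count is no check of the calls. The 5-day and untreated arrays did not overlap for 372 of the 393 probes, against 1601 of all 17374 tested (9.21%). Selection favours this too, so a lack of overlap given below for a called gene describes its values and is no further check. For comparison, the same test called 132 probes at 3 days and 199 at 7 days. The spread behind these tests was estimated over all 35 distinct arrays. The arrays at 1 to 24 h had a smaller interquartile range (0.36 to 0.5) than those at 5 days (0.7 to 0.81). With a shared spread, the standard errors and adjusted p given for 5 days can therefore be too small. With only the arrays at 5 days and untreated in the fit, limma called 0 probes and 1329 had an unadjusted p under 0.05. With only the 3-day, 5-day, 7-day and untreated arrays it called 13. Leaving out untreated replicate 1, 3 or 4 gave 879, 267 and 212 probes, and 398, 90 and 63 genes. Without centring, which shifted the median difference of all probes to -0.22, 217 probes were called (57 higher, 160 lower), and with quantile normalization 265 (86 higher, 179 lower). With the rows left as deposited it called 87 probes. With the Cy3 arrays not turned it called 358 probes (86 higher, 272 lower), and of the 393 probes 0 were called in the same direction and 263 had the opposite sign.

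Since channel 2 already holds untreated cells, the 5-day mean was also tested against 0. Over all arrays this called 1082 of 18209 probes (5.94%) and 450 of 9152 genes (4.92%). A stricter form used the spread within the late arrays (3, 5 and 7 days and untreated). It does not use the level of the untreated arrays and was added after the data were seen. It uses the same 5-day values on which the genes were called, so it is no independent check of them. It called 286 of 18209 probes (1.57%), among them 209 of the 393, and 73 of 9152 genes (0.798%), among them 58 of the 142. A gene mean can average a probe that lacks values in 1 of the groups; the values of single probes are given beside such genes.

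The promoters of 4 called genes are printed because the results turn on these genes or their families. The sequences are from RefSeq on GRCm38.p6, from 100 bases before to 25 bases after the annotated start, 5′ to 3′ on the gene's strand. Rpl13a and Rps28 encode ribosomal proteins that fell, Hspe1 encodes a mitochondrial chaperonin that fell and Saa3 encodes an acute-phase protein that rose. Capitals mark CTTTCC, whose first base is at position 10 from the annotated start and which lies within a longer run of pyrimidines, in Rpl13a (chr7:45128721-45128845, minus strand), and CTTCCG, the ETS core CGGAAG read on the opposite strand, in Rps28 (chr17:33824538-33824662, minus strand). In Hspe1 (chr1:55088048-55088172, plus strand) they mark GAANNTTC, the core of a heat shock element, an opposite-strand CGGAAG (read as CTTCCG) that overlaps it, and a CGGAAG on the gene's strand that follows it directly. In Saa3 (chr7:46715652-46715776, minus strand) they mark a C/EBP-like TTNNGCAA and 2 overlapping matches of TATATA.
Rpl13a: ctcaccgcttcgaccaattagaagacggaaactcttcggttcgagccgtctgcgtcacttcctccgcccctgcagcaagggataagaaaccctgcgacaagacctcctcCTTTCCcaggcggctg
Rps28: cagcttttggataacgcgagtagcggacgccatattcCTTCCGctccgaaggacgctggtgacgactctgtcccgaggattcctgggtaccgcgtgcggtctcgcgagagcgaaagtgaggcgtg
Hspe1: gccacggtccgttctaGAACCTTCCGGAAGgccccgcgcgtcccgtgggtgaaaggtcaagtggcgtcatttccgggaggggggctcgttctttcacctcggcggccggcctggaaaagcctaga
Saa3: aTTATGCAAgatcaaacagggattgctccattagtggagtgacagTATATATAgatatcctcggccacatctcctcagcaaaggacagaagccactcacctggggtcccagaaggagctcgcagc

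Both strands of all 32851 promoter windows of this length were searched for each motif. CGGAAG was found in 10.6% of all windows. It was found for 7 of the 12 fallen ribosomal protein genes with a window and for 25 of the 50 ribosomal protein genes with a window. A gene was counted if any of its windows matched, so these gene counts and the share of windows are unlike measures. CTTTCC was found in 11.3% of all windows, and for 2 of those 12 genes and 14 of those 50. GAANNTTC was found in 3.32%, TTNNGCAA in 4.17% and TATATA in 2.44% of all windows. A match describes letters in the window and is not a binding site.

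Ribosomal protein genes were the list with the lowest median. They encode the proteins of the small (Rps) and large (Rpl) cytosolic ribosome subunits. Of 81 genes in the list 58 were on the array and 55 were tested: 14 fell, Rpl26 rose and 40 did not pass the test. The 14 were 25.5% of the list and 19.7% of all 71 genes that fell, where 0.8% of all genes fell. The median difference over the 55 genes was -0.81, against 0.03 over all genes tested. It was -0.88 for 22 Rps genes and -0.64 for 33 Rpl genes. The 5-day mean lay below 0 for 50 of the 55 genes, and every 5-day array lay below every untreated array for 33 of them, against 364 of all genes tested (4.1%). Without turning the Cy3 arrays, which sets the 2 dyes against each other, the list's median difference was 0.22. It was -0.62 with the Cy5 arrays only and -0.93 with the Cy3 arrays only, after turning. The direction of the family still rests on the assumed numerator. Values given as not turned for the lists below mix the dyes in the same way.

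Rps28 had log2 ratios of -0.93, -1.21, -1.22 and -1.10 at 5 days, against -0.11, 0.61 and 0.47 in untreated cells. Its difference of -1.46 (SE 0.19, adjusted p = 3e-05) was the largest in the family among called genes. The untreated value averages 1 more probe, and the probe measured in both groups differed by -1.52. Rpl13a, a part of the large subunit and a common reference gene for quantitative PCR, had -1.03, -0.81, -0.79 and -1.0 at 5 days, against 0.08, 0.46 and 0.49 in untreated cells. The 4 arrays at 5 days lay below all untreated arrays, and both Rpl13a probes passed on their own (differences of -1.46 and -1.09). Rps20 differed by -1.21, Rps26 by -1.18 and Rpl19 by -1.17, with adjusted p of 0.001, 0.0019 and 0.0033. Rplp0, the ribosomal stalk protein, differed by -0.87 (adjusted p = 0.0017), and by -0.99 on its probe with values in both groups. Rps7, Rpl39, Rps3a1, Rps29, Rpl5, Rpl31, Rps10 and Rpl36a fell by 0.86 to 1.05.

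Rpl26 went the other way, with 1.16, 1.55, 0.89 and 1.09 at 5 days, against -0.01, 0.38 and 0.42 in untreated cells. It rose by 0.87 (SE 0.16, adjusted p = 0.0019), and its 4 values at 5 days did not overlap the untreated ones. Rpl23 and Rplp1 had wide spreads and did not pass (1.55 with an SE of 1.33, and -1.24 with an SE of 0.54). When the 5-day mean was set against 0 among the late arrays, Rpl13a, Rps20, Rps28, Rps29, Rplp0 and Rpl35 were below 0 past the threshold and Rpl26 above it. Ribosomal protein genes have many processed pseudogenes, and how far a cDNA spot cross-hybridised was not tested.

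**Figure D2:**
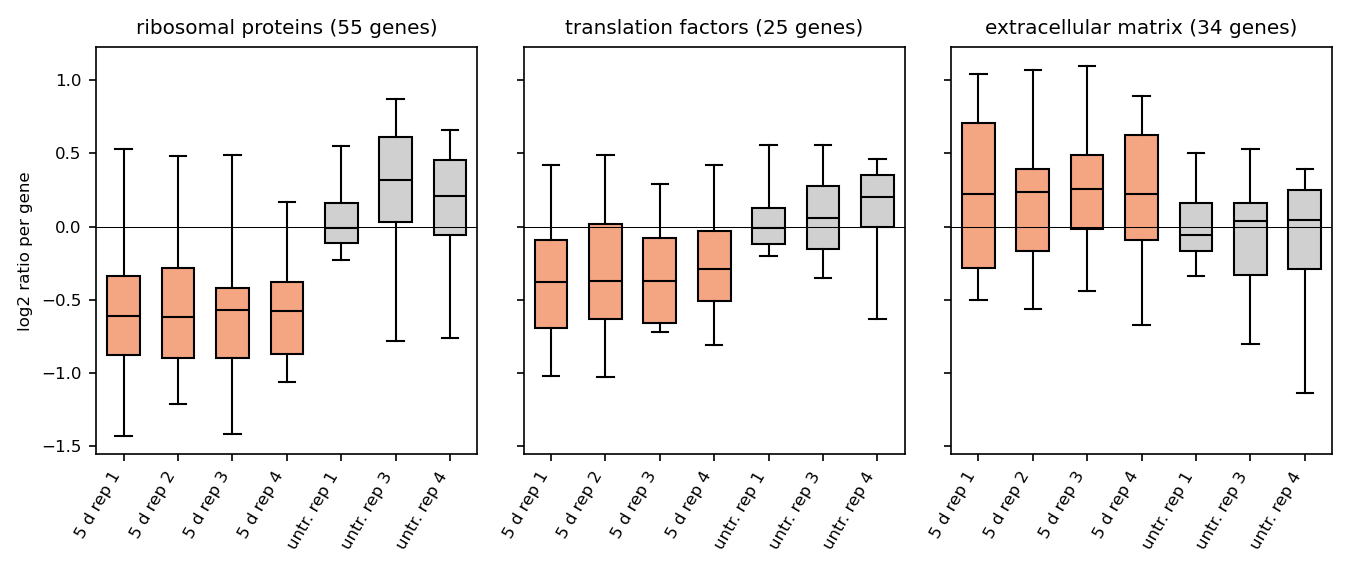
Log2 ratio per gene on each 5-day array (orange) and each distinct untreated array (grey) for ribosomal protein, translation factor and extracellular matrix genes; the line is the median, the box the quartiles and the whiskers run between percentiles 5 and 95. The ribosomal protein median lies between -0.62 and -0.57 on the 5-day arrays and between -0.01 and 0.32 on the untreated arrays.

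The list median of ribosomal protein genes per array was -0.61, -0.62, -0.57 and -0.58 at 5 days, against -0.01, 0.32 and 0.21 in untreated cells. All 4 arrays at 5 days, of both dyes, lay below all untreated arrays. Of the untreated medians, -0.01 is from the Cy5 array and 0.32 and 0.21 are from the Cy3 arrays. By time the median level was -0.18, 0.21, 0.04, -0.08 and -0.04 at 1, 2, 4, 12 and 24 h, and -0.30, -0.63 and -0.33 at 3, 5 and 7 days. The lowest level was thus at 5 days.

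Translation factors, which load and move the ribosome, had a median difference of -0.48 over 25 genes (0.05 with the Cy3 arrays not turned). Eef1b2, Eif3h, Eef1a1 and Eef1d fell, none rose and 21 did not pass, where 0.8% of all genes fell. Eef1b2, which recharges the elongation factor eEF1A with GTP, had -1.02, -1.35, -0.66 and -0.86 at 5 days, against 0.01, 0.17 and 0.44 in untreated cells. It fell by 1.14 (SE 0.22, adjusted p = 0.0036), and the groups did not overlap. Eif3h, a subunit of the initiation factor eIF3, fell by 1.06. Eef1a1, which brings aminoacyl-tRNA to the ribosome, fell by 0.93 and passed on both of its probes. Eef1d fell by 0.55 on the gene level, where 2 of its 3 probes passed and the third differed by 0.02. Against 0 among the late arrays Eef1b2 passed, while Eif3h, Eef1a1 and Eef1d did not (adjusted p = 0.092, 0.19 and 0.24).

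Npm1, the nucleolar chaperone of ribosome assembly, had -1.20, -1.03, -0.96 and -1.05 at 5 days, against -0.09, 0.58 and 0.86 in untreated cells. Its probe fell by 1.48 (SE 0.26, adjusted p = 0.00097). Nme2, a nucleoside diphosphate kinase, had -1.20, -0.96, -1.18 and -1.14 at 5 days, against 0.01, 0.55 and 0.50 in untreated cells, a difference of -1.51 (SE 0.20, adjusted p = 3.2e-05). In both genes the 5-day arrays were tightly grouped and lay below every untreated array, and both were also below 0 among the late arrays (adjusted p = 0.017 and 0.0037).

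Respiratory chain genes had a median difference of -0.42 over 62 tested (0.08 with the Cy3 arrays not turned), and 51 of the 62 differences were below 0, as were 4178 of the 8872 over all genes. Ndufa6 and Ndufc2, subunits of complex I, and Uqcrh, the hinge protein of complex III, fell by 0.88, 0.60 and 0.98. None of the list rose, and 59 did not pass, where 0.8% of all genes fell. Uqcrh had -0.52, -0.65, -0.73 and -0.69 at 5 days, against -0.05, 0.33 and 0.69 in untreated cells. Of 60 mitochondrial ribosomal protein genes none passed in either direction (median -0.19), where 142 of 8872 genes did. No respiratory chain gene passed against 0 among the late arrays.

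Chaperones of the cytosol and mitochondrion had a median difference of -0.19 over 24 genes (0.04 not turned), with Hspe1, Hspd1 and Cct8 lower and 21 not past the test, where 0.8% of all genes fell. Hspe1 and Hspd1 encode the lid and the barrel of the mitochondrial chaperonin and are transcribed in opposite directions from a shared promoter, printed above. Hspe1 had -1.58, -1.08, -0.67 and -0.91 at 5 days, against -0.12, 0.35 and 0.53 in untreated cells, a difference of -1.28 (SE 0.28, adjusted p = 0.012). Hspd1 had -0.69, -0.57, -0.88 and -0.70 at 5 days, against -0.08, 0.10 and 0.54 in untreated cells, a difference of -0.91 (SE 0.15, adjusted p = 0.00068). Both genes were lower on every 5-day array than on every untreated array. Cct8, a subunit of the cytosolic chaperonin, fell by 0.79. Against 0 among the late arrays Hspe1 passed, while Hspd1 and Cct8 did not (adjusted p = 0.052 and 0.66).

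In the endoplasmic reticulum the chaperones Calr and Hsp90b1 and the factor Xbp1 rose, while the serine synthesis enzyme Psat1 of the same list fell. Calr, the calcium-binding lectin chaperone, had 1.08, 1.06, 1.08 and 1.08 at 5 days, against 0.10, -0.10 and 0.30 in untreated cells, a difference of 0.99 (SE 0.24, adjusted p = 0.025). Hsp90b1 (GRP94) rose by 0.90 (adjusted p = 0.016). Psat1 had -1.13, -1.29, -1.65 and -1.67 at 5 days, against -0.15, 0.54 and 0.19 in untreated cells, a difference of -1.68 (SE 0.38, adjusted p = 0.016). Calr, Hsp90b1 and Psat1 also passed against 0 among the late arrays. The list's median over 25 genes was 0.09, and 21 genes did not pass, where 1.6% of all genes were called.

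Xbp1, the transcription factor of the unfolded protein response, had the largest difference of all named probes. Its values were 0.39, 1.20, 0.34 and 1.55 at 5 days, against -1.94, -1.85 and -3.76 in untreated cells, a difference of 3.53 (SE 0.65, adjusted p = 0.0019). The untreated arrays lay further from 0 than the 5-day arrays: the mean was 0.87 ± 0.60 (SD, n = 4) at 5 days and -2.52 ± 1.08 (SD, n = 3) in untreated cells, and the 5-day mean did not pass against 0 (adjusted p = 0.50). Klhdc7a, Them7 and Zkscan1 likewise had 5-day means of 0.16 to 0.86 and untreated means of -2.32 to -1.67, with no overlap. The other Them7 probe differed by -0.52 and did not pass (adjusted p = 0.77). Pygm and Kcnu1 had 5-day means of 0.85 and 0.23, and their untreated arrays were split. Pygm had -0.23, -0.88 and -3.20 in untreated cells, and Kcnu1 had 0.04, -2.65 and -3.39. The groups overlapped for Kcnu1, whose difference was -0.20 with the Cy5 arrays only. None of these 5 passed against 0 among the late arrays.

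Of 34 extracellular matrix genes 6 rose, none fell and 28 did not pass, where 0.8% of all genes rose. The list's median difference was 0.30, with 23 differences above 0 and 11 below. It was 0.08 without centring, 0.19 with quantile normalization and -0.02 with the Cy3 arrays not turned. Lox encodes lysyl oxidase, the enzyme that crosslinks collagen and elastin and a known suppressor of RAS transformation. It had 1.51, 1.64, 1.56 and 1.48 at 5 days, against -0.28, 0.41 and 0.49 in untreated cells, a difference of 1.37 (SE 0.16, adjusted p = 1.3e-05). The 4 arrays at 5 days spanned both dyes and lay above the highest untreated array, and its 2 measured probes gave 1.43 and 1.42.

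The other risen matrix genes were smaller in change. Col6a1, a chain of microfibrillar collagen VI, had 1.04, 0.97, 0.77 and 0.73 at 5 days, against -0.06, -0.56 and -0.14 in untreated cells (difference 1.12, adjusted p = 0.0019). Thbs2, a matricellular inhibitor of angiogenesis, had 1.29, 1.07, 0.99 and 0.88 at 5 days, against -0.13, 0.06 and 0.33 in untreated cells (difference 0.95, adjusted p = 0.0017). Neither group of arrays overlapped the other in these genes. Fbln5, an elastic fibre protein, rose by 0.83, the proteoglycan Dcn by 0.81 and Col1a1, the main chain of collagen I, by 0.55. Col1a1 passed on 1 of its 2 probes. Only Lox and Thbs2 of the 6 passed against 0 among the late arrays, where Col6a1 and Fbln5 had an adjusted p of 0.051 and Dcn of 0.055.

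Among 15 matrix proteases and inhibitors Mmp2, gelatinase A, was the single gene called, where 1.6% of all genes were called. It had 1.05, 1.14, 0.86 and 1.11 at 5 days, against -0.03, -0.17 and -0.09 in untreated cells, a difference of 1.12 (SE 0.24, adjusted p = 0.0077). It did not pass against 0 among the late arrays (adjusted p = 0.06). The list's median was 0.15 (-0.03 not turned, and -0.07 not centred). Adamts1 had 1.10, 1.01, 0.94 and 0.68 at 5 days, against -0.43, 0.21 and 0.68 in untreated cells. It did not pass (0.80, adjusted p = 0.095). Postn, periostin, and Ctsl, cathepsin L, did not pass either (-0.61 and -0.32).

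Genes that mark transformed or motile fibroblasts had a median difference of -0.64 over 13 tested (0.02 not turned). S100a6 (calcyclin) and S100a4 (metastasin), calcium-binding proteins, fell, none rose and 11 did not pass, where 0.8% of all genes fell. S100a6 had -1.22, -1.65, -1.03 and -1.06 at 5 days, against 0.14, 0.02 and 0.88 in untreated cells, a difference of -1.53 (SE 0.25, adjusted p = 0.00068). S100a4 had -0.87, -1.20, -0.65 and -0.77 at 5 days, against 0.08, 0.54 and 0.64 in untreated cells, a difference of -1.25 (SE 0.27, adjusted p = 0.01).

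All 5-day arrays lay below all untreated arrays in both genes, and against 0 among the late arrays S100a6 passed and S100a4 did not (adjusted p = 0.021 and 0.088). S100a10, the annexin A2 partner, had 1 probe at -1.27, -1.34, -1.14 and -0.95 at 5 days, against 0.15, 0.52 and 0.66 in untreated cells. This probe fell by 1.64 (SE 0.16, adjusted p = 6.2e-07). The other S100a10 probe differed by -0.84 with an SE of 0.68, and the mean of both did not pass (adjusted p = 0.068).

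Vim, the intermediate filament protein of mesenchymal cells, had -1.13, -1.01, -1.06 and -1.34 at 5 days, against -0.12, -0.10 and 0.14 in untreated cells. Both probes passed, and the gene fell by 1.09 (SE 0.25, adjusted p = 0.015). It was the single gene called of 27 actin and contractile genes, whose median was 0.03 (-0.09 not turned). Of 11 fibroblast markers tested, Col1a1 and Dcn rose, Vim and S100a4 fell and 7 did not pass. Of 45 genes that mark epithelium, endothelium, leukocytes, muscle, liver or kidney, brain or adipocytes, none passed at the gene level. Over all genes 142 of 8872 passed (1.6%), so none of 45 is near that share. On its single measured probe the endothelial cadherin Cdh5 fell by 1.52 (adjusted p = 0.00032), where the median difference of the 5 endothelial genes was -0.06. The ratios do not show whether a marker was expressed in either sample. In a bulk sample fewer cells of a type and less RNA per cell cannot be told apart.

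Ccna2 encodes cyclin A2 of S and G2 phase, and its probe had -1.89, -1.59, -1.16 and -1.65 at 5 days, against 0.01, 0.21 and 0.38 in untreated cells. The probe fell by 1.75 (SE 0.24, adjusted p = 5.8e-05). The other Ccna2 probe differed by -0.72 and did not pass. Pcna, the replication clamp, had -0.68, -0.86, -0.87 and -0.88 at 5 days, against -0.12, 0.40 and 0.36 in untreated cells, and fell by 1.07 on the mean of 2 probes that both passed (SE 0.19, adjusted p = 0.0014). Every 5-day array lay below every untreated array in both genes.

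Dnmt1, the maintenance DNA methyltransferase, rose: it had 1.46, 1.40, 1.56 and 1.32 at 5 days, against 0.10, 0.30 and 0.61 in untreated cells, a difference of 1.10 (SE 0.14, adjusted p = 2.2e-05). Of 32 genes of the G1/S transition and replication Dnmt1 and Pcna were called (median -0.06), and of 32 genes of G2/M and mitosis Ccna2 alone (median -0.15). Over all genes 1.6% were called, 0.8% in each direction. Top2a did not pass (-1.06 with an SE of 0.49), and neither did Birc5, whose probe with values in both groups differed by 0.29. Of 20 growth arrest genes Gas1, a membrane protein that rises in resting fibroblasts, rose by 0.65 (adjusted p = 0.037) and 19 did not pass. Gas1 did not pass against 0 among the late arrays (adjusted p = 0.087).

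Among 7 tested ERBB receptors, ligands and adaptors none was called, where 1.6% of all genes were. The list's median was 0.45 (-0.01 not turned). No probe of the array is annotated to Erbb2, so the shut-down of the transgene could not be checked in any sample. Egr1 has a single probe, in the rows left out at the end of the 5-day arrays, and was not measured there. At 24 h and 3 days it was at -3.67 ± 0.45 and -1.82 ± 0.29, against -0.40 ± 0.17 in untreated cells (SD, n = 4, 4 and 3).

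Egfr, the family's founding receptor, had 5 probes that disagreed. Probe 8736 had 2.29, 2.07, 2.65 and 2.51 at 5 days, against -0.14, -0.19 and -0.46 in untreated cells. It rose by 2.68 (SE 0.25, adjusted p = 2.2e-07), which is a 6.41-fold difference. The other 4 Egfr probes differed by -0.56 to 0.11, none past the threshold, and the gene's mean differed by 0.45 (adjusted p = 0.42). Probe 8736 also passed against 0 among the late arrays (adjusted p = 0.00013). Which transcript it reports was not tested.

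Feedback and target genes of ERK signalling had a median difference of 0.61 over 7 genes (0.10 not turned). Ier3, an immediate early gene that also acts in apoptosis, was the single gene called, where 1.6% of all genes were called. It had 1.11, 0.99, 0.74 and 0.86 at 5 days, against -0.15, 0.04 and 0.06 in untreated cells. It rose by 0.93 (SE 0.18, adjusted p = 0.0027) on both of its probes. Errfi1, the feedback inhibitor of EGF receptors, differed by 0.93 and did not pass (adjusted p = 0.082). Etv4 and Etv5, ETS factors downstream of ERK, had 3.42, 0.32 and -0.18 on 3 arrays and -0.85 to 0.15 on 4 arrays at 5 days, and their groups overlapped at the gene level. Of 12 immediate early genes Ier3 alone passed (median 0.03). Btg2, an antiproliferative gene, differed by 0.73 at the gene level without passing. Its probe 3966 passed (0.77, adjusted p = 0.0095) and its other probe did not (0.70, adjusted p = 0.64). Nr4a1 differed by 0.67 and did not pass.

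Saa3 encodes an acute-phase serum amyloid A protein made by stimulated fibroblasts and macrophages. It had 1.88, 1.73, 2.96 and 1.67 at 5 days, against -0.03, 0.03 and -0.10 in untreated cells, a difference of 2.17 (SE 0.34, adjusted p = 0.00024 among probes). All 4 arrays at 5 days lay well above the untreated arrays, which were close to 0. H2-K1, the class I histocompatibility chain, had 1.03, 2.01, 3.21 and 1.01 at 5 days, against 0.18, -0.26 and 0.01 in untreated cells. It rose by 1.82 (SE 0.47, adjusted p = 0.049), close to the threshold, and did not pass against 0 among the late arrays (adjusted p = 0.10). These were the 2 called of 20 interferon and acute-phase genes, where 1.6% of all genes were called. The list's median was 0.27 (0.10 not turned). Irf1 did not pass (1.02), and neither did Lcn2, whose probe with enough values in both groups differed by 0.37.

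Of 19 TGF-beta and BMP genes, Eng, the endoglin co-receptor, was called at the gene level (0.67, adjusted p = 0.046), where 1.6% of all genes were called. The list's median was 0.29 (0.01 not turned). The Eng probes disagreed: probe 3863 differed by 1.30 (adjusted p = 0.00032) and the other by 0.04. Bmp4 had a difference of 1.01 and Ltbp3 of 0.76, and neither passed.

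Of 36 splicing and RNA-binding genes 2 rose, 3 fell and 31 did not pass (median -0.06), where 0.8% of all genes passed in each direction. Hnrnpa1, a splicing repressor, had -1.05, -0.91, -0.63 and -1.01 at 5 days, against -0.13, 0.26 and 0.43 in untreated cells, a difference of -1.06 (SE 0.16, adjusted p = 0.00033). The SR protein Srsf2 had 0.33, -3.00 and -3.03 on 3 arrays at 5 days, against 0.03, -0.26 and -0.07 in untreated cells. It passed with a difference of -1.80 (adjusted p = 0.04), although 1 of its 3 arrays lay above the untreated ones. Nono fell by 0.59, where neither of its probes passed alone. Matr3 and Srsf5 rose by 1.25 and 1.42. Srsf5's gene value averages a probe without a value on untreated replicate 1, and its other probe differed by 0.53 (adjusted p = 0.36). Against 0 among the late arrays Hnrnpa1 passed, while Srsf2, Srsf5, Nono and Matr3 did not (adjusted p = 0.12, 0.055, 0.15 and 0.92).

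Single genes were called in the remaining lists, beside 1.6% of all genes tested. Hmgcs1, the cytosolic synthase of the cholesterol pathway, had -0.99, -1.20, -1.12 and -1.02 at 5 days, against 0.05, 0.28 and 0.02 in untreated cells, and fell by 1.17 (SE 0.24, adjusted p = 0.0051). It was 1 of 15 lipid synthesis genes (median -0.25, and 0.09 not turned). Txn1, the thiol-reducing thioredoxin, fell by 1.14 (adjusted p = 0.0017) among 21 metal and oxidative stress genes (median 0.00). Slc38a2, a neutral amino acid transporter, rose by 0.84 (adjusted p = 0.0046) among 14 solute carriers (median -0.12). Against 0 among the late arrays Hmgcs1 passed, while Txn1 and Slc38a2 did not (adjusted p = 0.11 and 0.068). Of 17 glycolysis, 29 proteasome and 30 lysosome genes none was called, with medians of 0.01, -0.14 and -0.11. Ppia and Rplp0, often used as reference genes, fell by 0.98 and 0.87, and Rplp0 but not Ppia passed against 0 among the late arrays. Gapdh did not pass, and its 2 probes with values in both groups differed by -0.19 and 0.31.

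**Figure D3:**
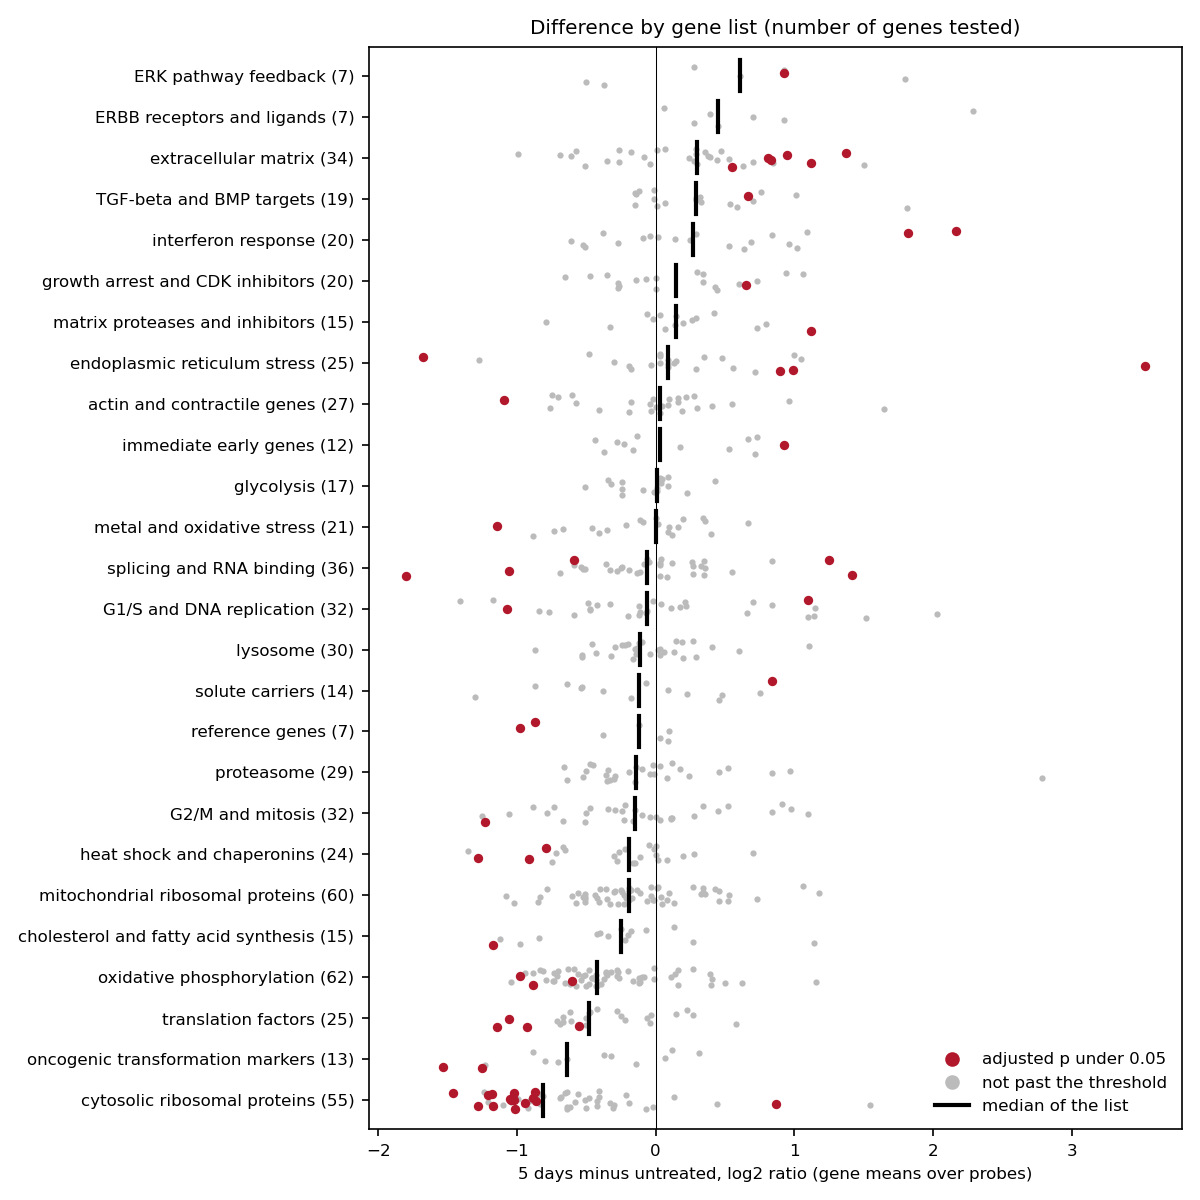
Difference between 5 days and untreated (horizontal axis, log2 ratio, one point per gene) by gene list, with the number of genes tested in brackets, genes past the threshold in red and the list's median as a bar. The medians run from -0.81 for cytosolic ribosomal proteins to 0.61 for ERK pathway feedback, with 14 red points below 0 among the ribosomal proteins and 6 above 0 among the matrix genes.

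Among the 15 largest rises by probe, Epha6, Samd11, Egfr and Saa3 passed both against untreated and against 0 among the late arrays. Epha6, an ephrin receptor, had 2.57, 2.31, 2.60 and 1.64 at 5 days, against 0.23, -0.11 and -0.71 in untreated cells (difference 2.50, adjusted p = 0.0068). Samd11 had 1.24, 1.43, 1.67 and 1.78 at 5 days, against -0.74, -0.08 and -1.30 in untreated cells (difference 2.22, adjusted p = 0.0004). The groups did not overlap in either gene.

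Rgs19, a GTPase activator of Gi proteins, Man1b1, an endoplasmic reticulum mannosidase, Gas2l1, the sulfate transporter Slc26a2 and the transcription factor Nfatc1 rose by 2.16 to 2.65 with standard errors of 0.58 to 0.70. In these 5 the untreated arrays themselves spread widely (SD 0.67 to 1.28), and none passed against 0 among the late arrays. The groups overlapped in Rgs19, Man1b1 and Nfatc1. Rgs19, Man1b1, Gas2l1 and Slc26a2 had values on 3 of the 4 arrays at 5 days. Man1b1, Gas2l1 and Nfatc1 each had other probes that did not pass. With the Cy5 arrays only, the difference of Nfatc1 was -0.17.

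Among the 15 largest falls, Sox5, a transcription factor of chondrocyte and neural lineages, had -1.80, -3.08, -1.66 and -1.31 at 5 days, against -0.27, -0.05 and 0.03 in untreated cells (difference -1.85, adjusted p = 0.0028). Amhr2, the receptor of anti-Müllerian hormone, had -2.49, -0.97, -1.15 and -0.58 at 5 days, against -0.09, 0.69 and 0.36 in untreated cells (difference -1.50, adjusted p = 0.0038). Both also passed against 0 among the late arrays.

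Pomgnt1, a glycosyltransferase, and Pdcd1, the PD-1 receptor, fell by 1.82 and 1.76 with 5-day SDs of 1.52 and 1.19, and neither passed against 0 there. The phosphatase Phospho2 and the kinase anchor Akap9 fell by 1.41 and 1.31 on 1 probe each, while their other probes did not pass.

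**Figure D4:**
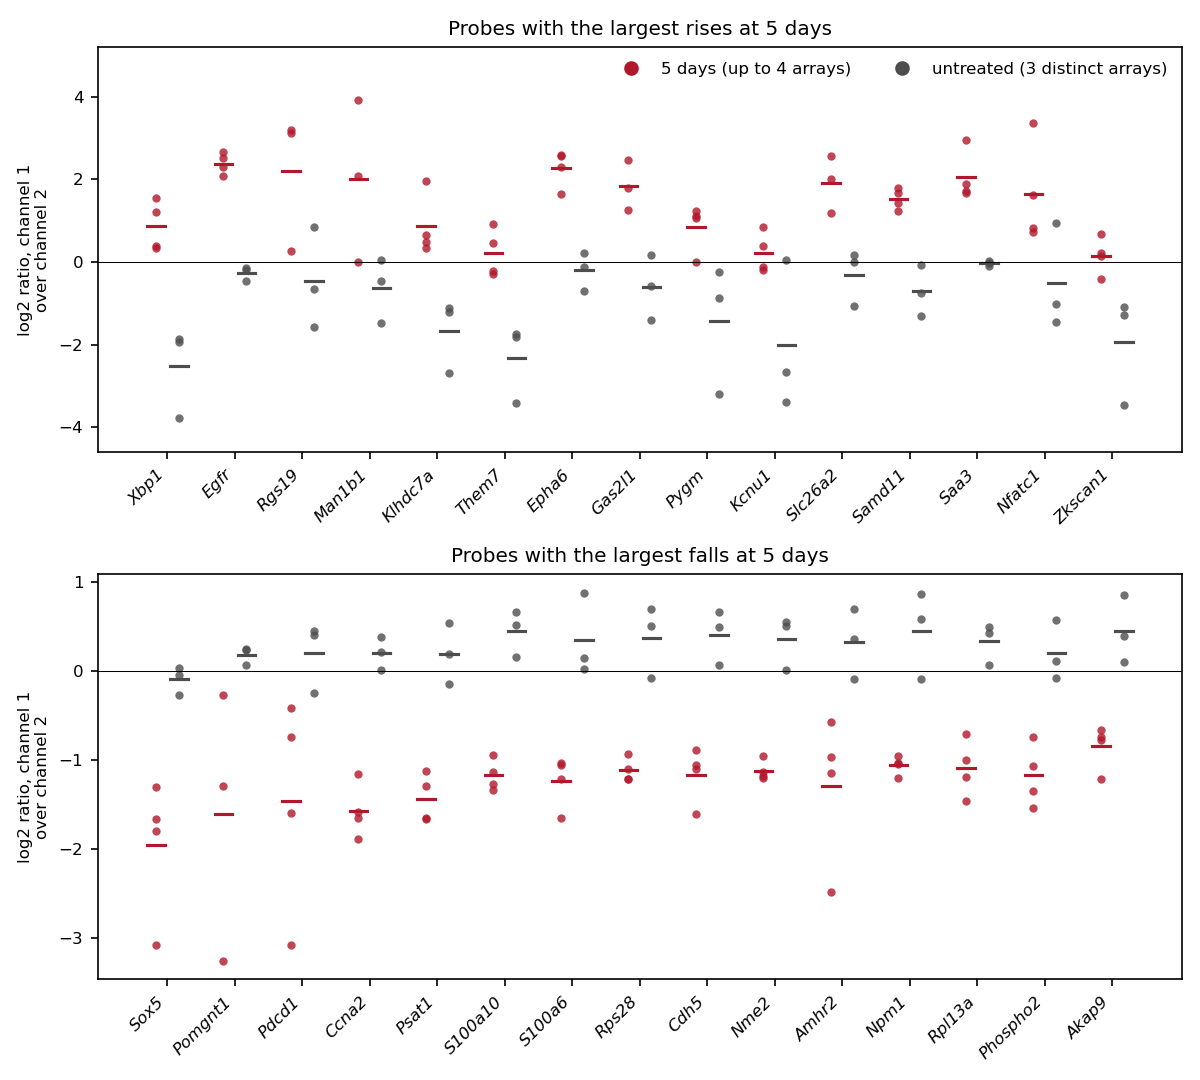
Log2 ratio (vertical axis) of the probes with the 15 largest rises (top) and the 15 largest falls (bottom), with each 5-day array in red on the left and each distinct untreated array in grey on the right of a gene, and a bar at each mean. Egfr and Saa3 have 5-day means of 2.38 and 2.06 with untreated values near 0, whereas for Xbp1 and Them7 all untreated points lie far below 0.

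The 5-day arrays were also set against the neighbouring times, which share no array with them. Between 5 and 3 days 450 of 16633 probes passed (2.71%), 292 higher (1.76%) and 158 lower (0.95%) at 5 days. Between 5 and 7 days 337 of 17043 passed (1.98%), 231 higher (1.36%) and 106 lower (0.622%). With quantile normalization the counts were 57 (53 higher, 4 lower) and 79 (67 higher, 12 lower). Without 3-day replicate 1 or 2 the first count was 721 or 999, and 1947 with the Cy3 arrays not turned, where the second was 95. With only the arrays compared limma called 0 in each case, with 1008 and 1400 probes at an unadjusted p under 0.05, and with array weights it called 32 and 73.

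Of the genes called against untreated and described above, 6 differed at 5 days from both 3 and 7 days: Egfr (probe 8736), Saa3, Dnmt1, Eng (probe 3863), Hnrnpa1 and Srsf2. These genes were picked on the same 5-day arrays, which favours extreme values at 5 days. The share of all probes that differed from both times is not given here. Saa3 was at 2.06 ± 0.61 at 5 days, against 0.11 ± 0.87 at 3 days and 0.45 ± 0.93 at 7 days (SD, n = 4 each), differences of 1.95 and 1.62 (adjusted p = 0.00064 and 0.0036). Dnmt1 was at 1.43 ± 0.10 at 5 days, against 0.49 ± 0.22 at 3 days and 0.58 ± 0.13 at 7 days, differences of 0.95 and 0.85 (adjusted p = 9.9e-05 and 0.00037). Its 4 values at 5 days lay above all values at every other time, and the means at those times ran from 0.16 to 0.58.

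Egfr probe 8736 was at 2.38 ± 0.25 at 5 days, against 1.20 ± 0.75 at 3 days and 0.66 ± 0.34 at 7 days, differences of 1.18 and 1.72. Hnrnpa1 was at -0.90 ± 0.19 at 5 days, against -0.33 ± 0.38 at 3 days and 0.22 ± 0.12 at 7 days, differences of -0.57 and -1.12. Eng probe 3863 differed by 1.09 and 0.80, and Srsf2, on 3 arrays, by -1.68 and -2.24. The 3-day values spread more than those at 5 days in Egfr, Saa3 and Hnrnpa1.

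Some of the other genes called against untreated differed from 1 neighbour. Ier3 was higher at 5 days than at 3 days on both probes (1.09 and 1.43), and its 7-day mean of 1.31 was not shown to differ from the 0.93 at 5 days. Ccna2 (probe 10601), S100a4, Cdh5, Phospho2, Uqcrh, Eif3h and Rps26 (probe 6348) were lower than at 3 days (differences of -1.20 to -0.69), as was Amhr2 (-2.10). Thbs2 (probe 3313), Epha6 and Rpl26 were higher than at 3 days by 1.03, 2.28 and 0.54, as were Rgs19 (2.80) and Btg2 (probe 3966, 0.65). Rplp1, which did not pass against untreated, was lower than at 3 days (-2.32, adjusted p = 0.011). Eno3, muscle enolase of the glycolysis list, did not differ from untreated past the threshold and was higher than at 3 and at 7 days (0.71 and 0.86 on probe 11742). Against 7 days, Pcna was lower at 5 days on both probes (-0.83 and -0.99), as were Postn (-1.53), Dcn (-0.75) and Eef1d (probe 14429, -0.60), and Ctsl was higher (1.03). Lox did not differ from either time on either probe past the threshold.

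The order of levels for Lox ran from -1.32 ± 0.12 at 1 h through -0.30 ± 0.12 at 24 h and 0.69 ± 0.33 at 3 days to 1.54 ± 0.07 at 5 days and 1.39 ± 0.12 at 7 days, with untreated cells at 0.20 ± 0.43. Dcn was at -1.87 ± 0.09 at 1 h, 0.85 ± 0.56 at 3 days, 0.78 ± 0.11 at 5 days and 1.53 ± 0.11 at 7 days, with untreated cells at 0.02 ± 0.18. In both matrix genes the means lay below the untreated mean in the hours and above it in the days. The Lox levels at times other than 5 and 7 days average 1 more probe, which was left out at 5 and 7 days. That probe had -1.33, -1.24, 0.39 and -0.01 at 3 days. On the 2 Lox probes with values at both times, 5 days differed from 3 days by 0.52 and -0.06, neither past the threshold. The step in the Lox mean from 3 to 5 days therefore cannot be read as a change in its level. Pcna was at 1.51 ± 0.16 at 2 h, 0.15 ± 0.11 at 24 h, -0.59 ± 0.34 at 3 days, -0.82 ± 0.09 at 5 days and 0.08 ± 0.31 at 7 days, with untreated cells at 0.21 ± 0.29. S100a6 was at 0.98 ± 0.26 at 24 h, -0.53 ± 0.89 at 3 days, -1.24 ± 0.28 at 5 days and -0.87 ± 0.04 at 7 days. The means of these 2 lay above 0 in the hours after 1 h, and all 4 arrays at 5 days lay below the untreated arrays. All times were set against the same untreated arrays.

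**Figure D5:**
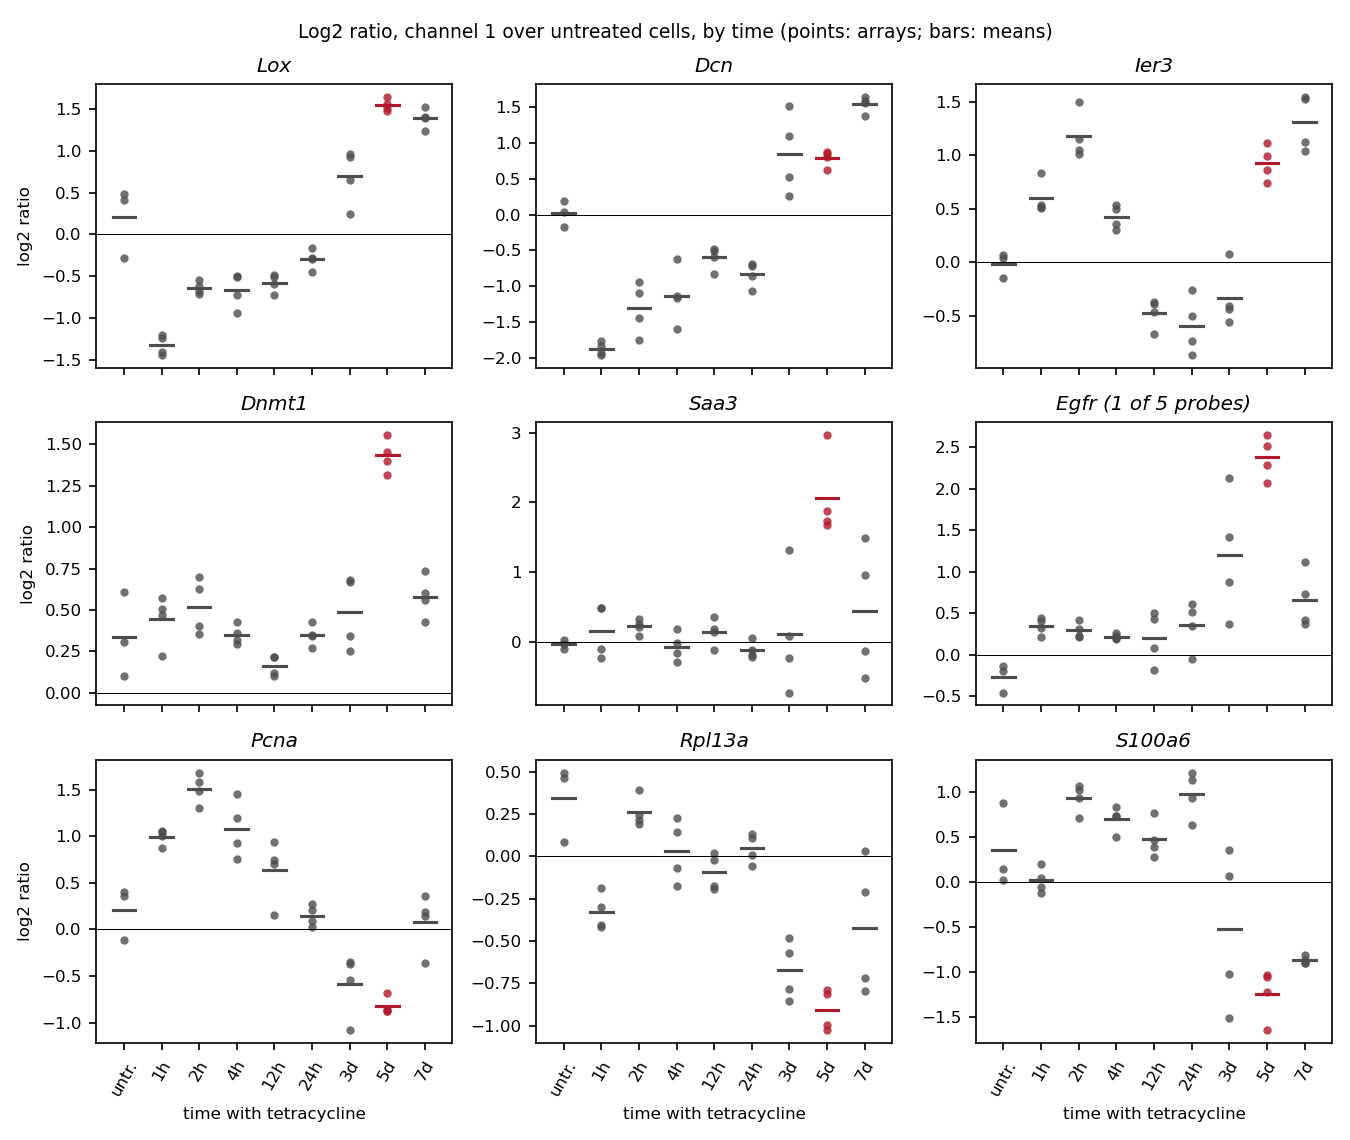
Log2 ratio over untreated cells (vertical axis) by time with tetracycline (horizontal axis) for 9 genes, one point per array and a bar at each mean, with 5 days in red. Dnmt1, Saa3 and the Egfr probe are highest at 5 days, Lox has means of 1.54 and 1.39 at 5 and 7 days, and Pcna, Rpl13a and S100a6 have their lowest means at 5 days.

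The largest called differences between neighbouring times had 3 or 4 values in each group, with SDs at 5 days from 0.41 (Inpp4b and Ppib) to 4.30 (Smarca5). Smarca5, a chromatin remodeller, had 8.06, -0.03 and 1.46 at 5 days, against -2.02, -4.23 and -3.70 at 3 days (difference 6.35, adjusted p = 0.016). Mfsd11, Ece1, Clcn3 and Lrch4 were higher than at 3 days by 3.20 to 4.59, and Ppib, Nags, P4ha3, Spp2 and Tbc1d13 were lower (-3.40 to -2.96). Against 7 days, Efnb3, Lrch4, Topbp1, Inpp4b and Peak1 were higher by 3.37 to 3.93, and Arfgap2, Lypd3, Lrrc8a, Dag1 and Ddx21 were lower (-4.27 to -3.19). Lrch4 had 1.97, 0.72, 1.58 and 0.43 at 5 days, against -2.72, -3.79, -3.23 and -1.26 at 7 days (difference 3.93, adjusted p = 0.00014). The groups of Lrch4 did not overlap. With array weights Lrch4 and Peak1 still passed against 7 days, and none of the other probes named here passed.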

How the data were processed

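The deposited values are log2 ratios per spot of a 20355-row table of the authors, and the software and normalization behind them are not given in the sources used here. Per the labels' protocols, RNA was labelled indirectly with Cy3 or Cy5. Values above 12 (2807 in all, near a ceiling of 16.61) were dropped, each array was centred on its median, and Cy3 arrays were multiplied by -1. The method of moving rows back was tested on 8 arrays at 24 h and 3 days with 4 rows dropped at random (20013 rows placed, 100.0% right). For the moved 5-day rows there is no known answer. Over the 4 moved stretches, their mean r with a prediction from the other arrays was 0.0756 to 0.2989 at the displacement used. At displacement 0 it was -0.007 to 0.0533. Displacements are counted after the further row by which 5-day replicate 1 was moved. The displacement was itself chosen on this prediction and on missing values. Of the probes 14030 had 1 gene symbol, 5 several and 6320 none, and 13994 matched RefSeq.

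limma 3.58.1 (R 4.3.3) fitted all 35 distinct arrays with group means, 1 dye effect, eBayes and Benjamini-Hochberg adjustment over all features with at least 3 values in each group; every adjusted p is from limma. On simulated data for 5 days against untreated (17374 probes) it recovered 12, 74, 86 and 98% of log2 changes of 1, 2, 3 and 4, with 4.93% false among calls. The simulation gave each probe 1 spread on all arrays. The real arrays differed, with an interquartile range of 0.36 to 0.5 at 1 to 24 h and 0.7 to 0.81 at 5 days. The simulation therefore cannot give the false share among the real calls. Named were the 15 largest called rises and falls among probes with 1 symbol (1 per gene, every 5-day array on 1 side of the untreated mean), the 5 largest of each against 3 and 7 days, 8 fixed genes (Erbb2, Egr1, Postn, Adamts1, Dcn, Lox, Ctsl and Gapdh), and from 26 gene lists and 8 marker lists every called member with up to 4 of the largest others. Alternatives are given in the closing section. Members and lists were chosen with earlier results of these data known.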

Additional observations from a re-analysis of the deposited data

Results flagged for a closer look

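Among 147 groups of 4 arrays at 5 days, 11 held 1 array far from the other 3 (Dixon's test, critical value 0.829), where chance gives about 1 in 20 groups. Replicate 1 stood apart for Pygm (0.0), Pcna (-0.68) and Glb1 (-2.13). Replicate 2 stood apart for Timp2 (-2.20), Mt1 (-2.20), the Ccna2 gene mean (-0.67) and Tgfb1 (6.78). Replicate 3 stood apart for Saa3 (2.96, as probe and as gene) and Slc2a3 (-4.0), and replicate 4 for Lcn2 (1.63). The gene values of Timp2, Tgfb1 and Lcn2 average probes with values on different arrays.

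Several differences between 5 days and the neighbouring times passed limma's test of that difference. Against 3 days these were Rgs19 (2.80), Epha6 (2.28), Saa3 (1.95), Ier3 (1.43 and 1.09 on 2 probes), Egfr (1.18), Eng (1.09), Thbs2 (1.03), Dnmt1 (0.95), Eno3 (0.71), Btg2 (0.65), Rpl26 (0.54), Hnrnpa1 (-0.57), Rps26 (-0.69), Eif3h (-0.72), Uqcrh (-0.73), Cdh5 (-0.85), Phospho2 (-0.88), S100a4 (-0.97), Ccna2 (-1.20), Srsf2 (-1.68), Amhr2 (-2.10) and Rplp1 (-2.32). Against 7 days these were Nfatc1 (1.83 on a probe not called against untreated), Egfr (1.72), Saa3 (1.62), Ctsl (1.03), Eno3 (0.86), Dnmt1 (0.85), Eng (0.80), Eef1d (-0.60), Dcn (-0.75), Pcna (-0.83 and -0.99 on 2 probes), Hnrnpa1 (-1.12), Postn (-1.53) and Srsf2 (-2.24).

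The largest called differences were of genes in no list. Against 3 days they were Smarca5 (6.35), Mfsd11 (4.59), Ece1 (3.62), Clcn3 (3.23), Lrch4 (3.20), Tbc1d13 (-2.96), Spp2 (-2.97), P4ha3 (-3.25), Nags (-3.32) and Ppib (-3.40). Against 7 days they were Efnb3 (3.93), Lrch4 (3.93), Topbp1 (3.85), Inpp4b (3.78), Peak1 (3.37), Ddx21 (-3.19), Dag1 (-3.45), Lrrc8a (-3.60), Lypd3 (-3.81) and Arfgap2 (-4.27).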

How the results depend on the processing

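For 5 days against untreated, the count of 393 probes became 87 with the rows as deposited, 217 without centring, 630 with a dye effect for each group, 258 with Cy5 arrays only, 880 with Cy3 arrays only, 0 with only the arrays compared, 13 with the late arrays only, 704 with array weights and 1082 for the test against 0. The count of 142 genes became 41, 73, 226, 79, 371, 0 (589 at an unadjusted p under 0.05), 1, 330 and 450 in the same order, 92 with quantile normalization, and 73 for the test against 0 among the late arrays. Against 3 days the 450 probes became 127 without centring, 57 with quantile normalization, 1947 with Cy3 arrays not turned, 1101 with a dye effect for each group, 2478 with Cy3 arrays only, 0 with only the arrays compared, 3 with the late arrays and 32 with array weights. Against 7 days the 337 probes became 212, 79, 95, 784, 203, 0, 1 and 73 in the same order, and 180 with Cy5 arrays only. Leaving out 1 array at a time gave 212 to 879 probes and 63 to 398 genes against untreated, 332 to 999 probes against 3 days and 278 to 400 against 7 days; the extremes are without untreated replicates 4 and 1, and without a 5-day array and 3-day replicate 2. Replicate numbers did not pair the arrays, and with a replicate block the counts were 380, 427 and 337 probes and 123 genes. The other alternatives kept each count within 1.5 times. The cause of these shifts was not tested.

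Of 86 called results for named probes and genes, 71 changed sign with the Cy3 arrays not turned. The differences then were, by probe, Xbp1 -1.32, Egfr -0.58, Rgs19 -1.13, Man1b1 -1.64, Klhdc7a -0.25, Them7 -1.65, Epha6 -0.32, Gas2l1 -1.35, Pygm -1.57, Kcnu1 -2.34, Slc26a2 -1.43, Samd11 -0.56, Saa3 -0.38, Nfatc1 -2.09, Pomgnt1 0.72, Pdcd1 0.29, Psat1 0.62, S100a10 0.18, S100a6 0.03, Rps28 0.57, Cdh5 0.18, Nme2 0.39, Npm1 0.48, Rpl13a 0.13, Phospho2 0.10, Akap9 0.47, and by gene, Col6a1 -0.09, Mmp2 -0.03, Vim 0.18, Pcna 0.22, Ccna2 0.11, Rpl5 0.67, Rpl13a 0.35, Rpl19 0.61, Rpl31 0.63, Rpl36a 0.41, Rpl39 0.59, Rps3a1 0.41, Rps7 0.35, Rps10 0.09, Rps20 0.41, Rps26 0.26, Rps28 0.54, Rps29 0.16, Rplp0 0.22, Ndufa6 0.41, Ndufc2 0.31, Uqcrh 0.44, Hmgcs1 0.03, Calr -0.18, Xbp1 -1.32, Psat1 0.62, Hspd1 0.29, Hspe1 0.07, Cct8 0.49, H2-K1 -0.55, Saa3 -0.38, S100a4 0.05, S100a6 0.03, Txn1 0.24, Ppia 0.35, Eef1a1 0.35, Eef1b2 0.04, Eef1d 0.22, Eif3h 0.66, Srsf2 2.00, Srsf5 -0.54, Hnrnpa1 0.12, Nono 0.27, Matr3 -0.34, Slc38a2 -0.19. With the rows as deposited 15 changed sign: by probe Gas2l1 -0.04, Pomgnt1 0.17, S100a6 0.32, Rps28 0.53, and by gene Dcn -0.50, Ier3 -0.29, Rpl31 0.86, Rps10 0.11, Rps28 0.02, Rplp0 0.57, Calr -0.19, S100a6 0.32, Eef1d 0.02, Eif3h 0.09, Srsf2 0.03. With Cy5 arrays only, Kcnu1 was at -0.20 and Nfatc1 at -0.17. With the late arrays only, 84 of the 86 no longer passed, and 40 and 30 no longer passed without untreated replicate 4 or 3.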
